A study of Mus musculus with 9 samples.

Results

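The 10 immediate early genes were chosen by name, as genes whose transcription neuronal activity switches on, and all 10 were found among the 53280 genes of the count table. They are the AP-1 subunits Fos, Fosb, Jun and Junb, the zinc finger factors Egr1, Egr2 and Egr3, the orphan nuclear receptor Nr4a1, the neuronal transcription factor Npas4 and the synaptic gene Arc. They were measured in the neural retina of mouse pups at postnatal day 4 (P4) in 2 groups, 5 pools of Opn4 knockout (Opn4KO) retina and 4 pools of wildtype (Opn4WT) retina. Opn4 encodes melanopsin, the photopigment of the intrinsically photosensitive ganglion cells. Pups of both genotypes were littermates from crosses of Opn4 heterozygotes, lived under about 300 lux of standard lighting, and were killed 6 to 7 h after lights on. Each pool joined 4 retinas of 2 animals with 1 genotype and gave 1 poly-A RNA library. Since 2 animals have no more than 4 retinas, no animal gave tissue to 2 pools, but pools may share a litter. The labels name neither the sex of the pups nor the part of Opn4 that the allele lacks. None of the 9 pools came from pups in darkness or after a light pulse, so the values are levels in the light phase and not inductions.

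Immediate early genes are transcribed within minutes of a stimulus and need no new protein for it. Calcium and cyclic AMP act on them through the factor CREB, and growth factor and calcium signals act through the kinase ERK, the serum response factor SRF and its ternary complex partners. Fos and Fosb proteins pair with Jun or Junb to form AP-1, the EGR proteins bind GC-rich sites, Npas4 is induced by calcium entry in neurons, and Arc removes AMPA receptors from synapses. In the retina, light and spontaneous activity are among the stimuli known to induce Fos and Egr1.

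The promoters are shown because CREB and SRF reach these genes through short motifs in them. Promoter sequences of RefSeq (GRCm38.p6) were matched for 7 of the 10 genes, and Egr1, Egr3 and Arc are named only. The 250 bases before each start were searched on both strands for the CREB half-site TGACG, for the full CREB site TGACGTCA, which holds the half-site, for the CArG box of SRF, for the AP-1 site TGANTCA and for the EGR site GCGNGGGCG. In the 4 sequences, which run 5′ to 3′, capitals mark half-sites and CArG boxes.
Fos, chr12:85473640-85473889, plus strand: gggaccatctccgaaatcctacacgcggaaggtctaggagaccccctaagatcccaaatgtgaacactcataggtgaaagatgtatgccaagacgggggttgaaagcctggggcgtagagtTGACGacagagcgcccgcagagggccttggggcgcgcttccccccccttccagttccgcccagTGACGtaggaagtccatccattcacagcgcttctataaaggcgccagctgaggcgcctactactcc
Nr4a1, chr15:101266596-101266845, plus strand: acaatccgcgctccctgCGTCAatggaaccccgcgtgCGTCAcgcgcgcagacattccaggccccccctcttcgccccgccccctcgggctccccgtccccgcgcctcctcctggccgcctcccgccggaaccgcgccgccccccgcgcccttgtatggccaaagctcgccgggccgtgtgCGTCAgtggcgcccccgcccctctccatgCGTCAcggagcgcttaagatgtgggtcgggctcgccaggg
Npas4, chr19:4989972-4990221, minus strand: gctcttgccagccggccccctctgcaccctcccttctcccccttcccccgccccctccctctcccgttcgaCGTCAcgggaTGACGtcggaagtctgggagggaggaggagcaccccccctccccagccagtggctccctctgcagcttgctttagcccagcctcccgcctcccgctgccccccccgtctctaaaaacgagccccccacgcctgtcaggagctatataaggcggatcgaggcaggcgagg
Egr2, chr10:67537619-67537868, plus strand: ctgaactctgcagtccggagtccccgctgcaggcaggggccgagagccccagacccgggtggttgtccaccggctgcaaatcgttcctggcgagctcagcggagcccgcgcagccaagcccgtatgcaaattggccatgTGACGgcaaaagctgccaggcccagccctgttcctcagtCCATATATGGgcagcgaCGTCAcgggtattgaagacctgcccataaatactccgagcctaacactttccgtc
A half-site was found in 6 of the 7 genes, all but Jun, and for Egr2 before 3 of its 5 starts. The windows of these 3 starts overlap and hold the same 2 half-sites and the same CArG box. Of all 32851 promoters of that length, 17.8% held a half-site, a share per promoter and not per gene. Nr4a1 had 4 half-sites, and Fos and Npas4 had 2 each. The full site was in none of the 7, against 1.55% of all promoters, and the CArG box was in Egr2 alone (4 of 5 starts), against 1.47%. No AP-1 site was found, against 6.75% of all promoters, and an EGR site was found in Fosb and Nr4a1, against 4.70%. These matches describe letters in a window and not bound sites. Motifs further from a start, and any of Egr1, Egr3 and Arc, were not searched, so a gene without a match may still have the motif.

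Opn4 averaged 1.36 ± 0.29 CPM (counts scaled to library size) in knockout and 11.7 ± 0.28 CPM in wildtype (mean ± SD of 5 and 4 pools, as throughout). The libraries held 65.5 to 86.1 M counts, more than the 42.7 ± 3.9 M reads per sample that the study states, so a count may not be an independent fragment. Log2 CPM correlated at 0.981 to 0.985 across genes between pools of 1 genotype. Knockout pools 1 and 2 held more lens RNA than the rest: the lens crystallin Cryaa stood at 4.65 CPM in knockout pool 1, at 3.28 CPM in knockout pool 2, between 0.0939 and 0.737 CPM in knockout pools 3 to 5, and between 0.0812 and 0.124 CPM in wildtype pools.

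Levels of different genes were compared in TPM, which is scaled by transcript length, summed over the transcripts of a gene. Jun was the most abundant, at 77.2 ± 6.8 TPM in knockout and 69.1 ± 3.4 TPM in wildtype. Nr4a1 followed at 15.9 ± 2.3 TPM in knockout and 17.1 ± 2.1 TPM in wildtype, then Junb at 13.0 ± 1.5 TPM in knockout and 12.8 ± 1.7 TPM in wildtype. Egr1 held 9.49 ± 0.88 TPM in knockout and 6.77 ± 1.07 TPM in wildtype, and Fos 3.38 ± 0.68 TPM in knockout and 2.72 ± 0.47 TPM in wildtype. Both were less abundant on average than Jun and Junb in either genotype. The neuronal genes were scarce, with Npas4 at 0.977 ± 0.33 TPM in knockout and 1.25 ± 0.18 TPM in wildtype, and Arc at 0.689 ± 0.17 TPM in knockout and 1.14 ± 0.20 TPM in wildtype. Fosb, Egr3 and Egr2 averaged 0.289, 0.265 and 0.232 TPM over the 9 pools. In this order the pools of neighbouring genes did not overlap between Jun and Nr4a1, Egr1 and Fos, Fos and Npas4, or Arc and Fosb, and they overlapped for the other 5 neighbours.

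**Figure D1:**
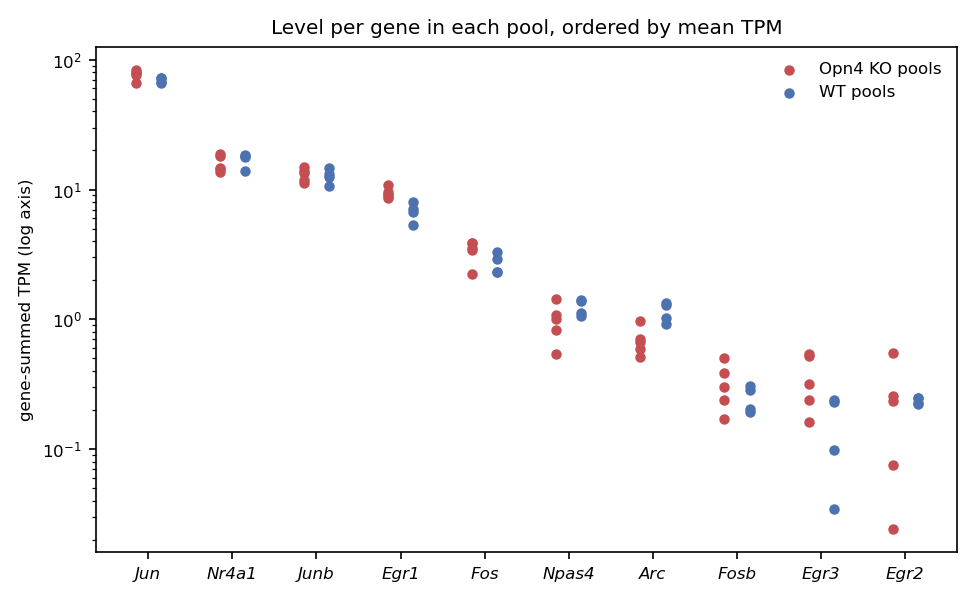
Gene-summed TPM on a log axis for each gene, in order of the mean over 9 pools, with one point per pool and knockout pools left of wildtype pools. Jun averaged 73.6 TPM and Egr2 0.232 TPM; knockout points lie above all wildtype points for Egr1 and mostly below them for Arc.

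In the comparison of genotypes, Egr1 was the 1 gene of the 10 that passed the test, and it was higher in knockout. Egr3, at a far lower level, was higher in CPM in every knockout pool than in any wildtype pool, but its groups overlapped in TPM, while Arc and Npas4 averaged lower in knockout. None of these 3 passed the test. Fos, Fosb, Junb and Nr4a1 had folds between 0.975 and 1.22 that did not pass, and Jun averaged 1.11 times the wildtype level without passing. The test was edgeR's quasi-likelihood test on counts, two-sided, with Benjamini-Hochberg adjustment over 21150 genes and a threshold of 0.05, and fold changes are knockout over wildtype. Of the 10, 9 passed the filter on low counts and Egr2 did not, so no count over the 9 speaks for all 10. Of all genes tested, 3.59% were called, 1.34% as higher and 2.25% as lower. No gene of the 9 was called as lower. Groups without overlap were seen for 2 of the 9 with knockout higher, against 3.92% of all genes, and for 0 of the 9 with knockout lower, against 4.37%. The median log2 fold change of the 9 was 0.03, against 0.0012 over all genes tested. An unadjusted p under 0.05 was reached by 4 of the 9 (Egr1, Egr3 and Jun higher, Arc lower), against 16.5% of all genes tested. Whole retina was measured, so fewer cells of a type and less RNA per cell cannot be told apart.

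**Figure D2:**
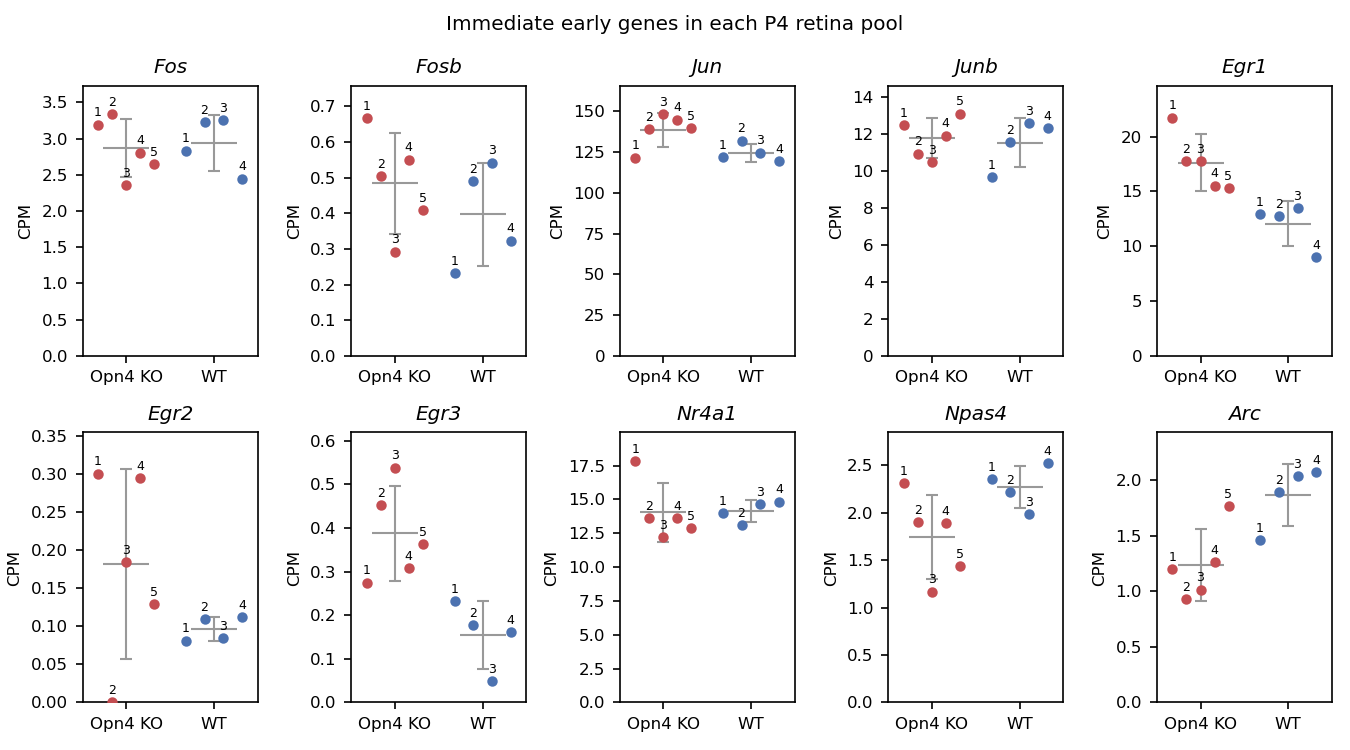
CPM of each gene in every pool, knockout left and wildtype right, numbered by pool, with grey bars for the mean ± SD; each axis starts at 0. The knockout points of Egr1 (15.3 to 21.7 CPM) and Egr3 (0.274 to 0.538 CPM) lie above all wildtype points (9.01 to 13.5 and 0.0482 to 0.232 CPM), and those of the other genes overlap with wildtype.

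The EGR genes encode zinc finger factors that turn brief signals into longer transcription. Egr1 held 21.7, 17.8, 17.8, 15.5 and 15.3 CPM in knockout pools 1 to 5, and 13.0, 12.7, 13.5 and 9.01 CPM in wildtype pools 1 to 4. The lowest knockout pool thus lay above the highest wildtype pool, and wildtype pool 4 stood below its 3 companions. The fold was 1.46 (log2 fold change 0.55, SE 0.13, 95% interval 0.27 to 0.83; edgeR adjusted p = 0.0326), higher in 5 of 5 knockout pools. Both deposited Egr1 transcripts averaged higher in knockout, at 7.25 ± 0.72 TPM against 5.22 ± 0.87 TPM in wildtype for the main one and 2.24 ± 0.34 TPM against 1.55 ± 0.57 TPM for the minor one. Summed over both, TPM was 10.9, 9.28, 9.65, 8.66 and 8.94 in knockout pools 1 to 5 and 6.72, 7.06, 7.95 and 5.36 in wildtype pools 1 to 4. These values come from the same libraries quantified another way, and the groups do not overlap either. On log2(TPM + 0.5), a scale that understates changes of low genes, the difference was 0.47 (SE 0.11) and did not pass (limma adjusted p = 0.0676; 2.16% of 15295 genes called). In the authors' deposited table, Egr1 was higher in knockout by 0.45 on the log2 scale with q = 0.0237, where 1.46% of 17433 genes had a q under 0.05.

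The call of Egr1 was lost when any of 6 single pools was left out, namely knockout pool 1, 2 or 3 or wildtype pool 1, 2 or 4, with edgeR adjusted p from 0.0609 to 0.0741, and log2 fold changes without any 1 of the 9 pools ran from 0.43 to 0.61. Without knockout pools 1 and 2, the pools with the most Cryaa, the log2 fold change of Egr1 was 0.42 and edgeR's adjusted p = 0.150. Jun was then the gene called (log2 fold change 0.21, edgeR adjusted p = 0.0447). Knockout pools 1 and 2 also had the highest sums of rod markers, 4218 and 4105 CPM, against 2974 to 3393 CPM in knockout pools 3 to 5. Leaving them out thus changed more than lens RNA, and left fewer pools.

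**Figure D3:**
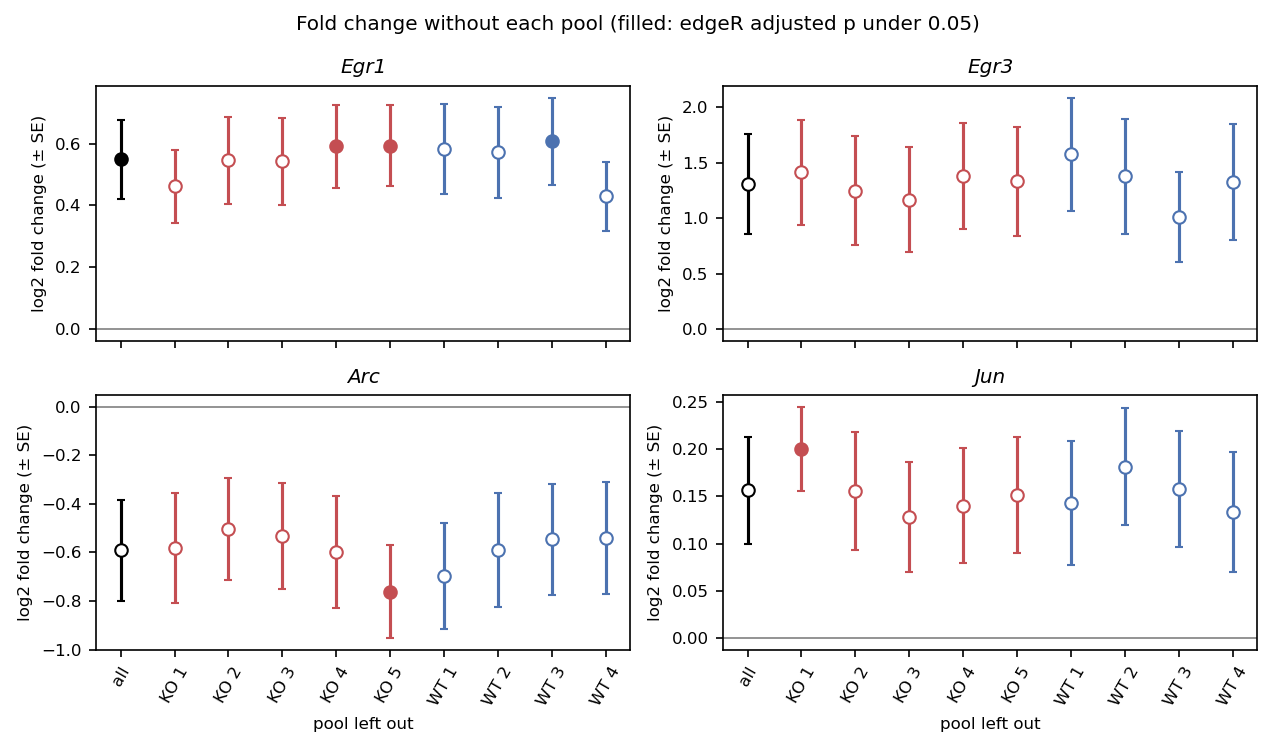
Log2 fold change of knockout over wildtype (± SE) for Egr1, Egr3, Arc and Jun with all pools and without each pool, filled where edgeR's adjusted p was under 0.05. No direction changes, but Egr1 is filled with all pools and without 3 of the 9 single pools, Jun is filled without knockout pool 1 alone and Arc without knockout pool 5 alone.

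Egr3, a close relative of Egr1, lies on chromosome 14 (70077203 to 70082614, plus strand, GRCm38) as Opn4 does, with starts of annotation 35.5 Mb apart. It was counted 21, 35, 35, 23 and 31 times in knockout pools 1 to 5 and 20, 13, 4 and 13 times in wildtype pools 1 to 4. In CPM these are 0.274, 0.453, 0.538, 0.309 and 0.363 for knockout and 0.232, 0.177, 0.0482 and 0.161 for wildtype. In CPM the groups did not overlap, but the lowest knockout pool and the highest wildtype pool were close. In summed TPM Egr3 held 0.241, 0.520, 0.316, 0.162 and 0.541 in knockout pools 1 to 5 and 0.231, 0.239, 0.0349 and 0.0990 in wildtype pools 1 to 4, and there the groups overlap, since knockout pool 4 lay below wildtype pools 1 and 2. The counts gave a log2 fold change of 1.31 (SE 0.45; edgeR adjusted p = 0.151, unadjusted p = 0.0123), with an interval of 0.34 to 2.29. Wildtype pool 3 was the lowest, and without it the log2 fold change was 1.01. Egr2, which patterns hindbrain and Schwann cells, had 23, 0, 12, 22 and 11 counts in knockout pools 1 to 5 and 7, 8, 7 and 9 counts in wildtype pools 1 to 4. Knockout pool 2 held no Egr2 count, while knockout pools 1 and 4 held the most. By counting error alone, no count allows a level of up to 0.0388 CPM (3 counts). That bound takes each count as an independent fragment and is higher if counts are not independent. In summed TPM Egr2 averaged 0.228 ± 0.205 in knockout and 0.236 ± 0.014 in wildtype, so the 2 quantifications differ for this gene.

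Among AP-1 genes, Jun held 122, 139, 148, 145 and 140 CPM in knockout pools 1 to 5, and 122, 132, 125 and 119 CPM in wildtype pools 1 to 4. In all, 4 knockout pools lay above every wildtype pool, and knockout pool 1 lay among the wildtype pools. The difference was 0.16 on the log2 scale (SE 0.06, interval 0.03 to 0.28; edgeR adjusted p = 0.173, unadjusted p = 0.0160), and without knockout pool 1 it was 0.20 with an adjusted p of 0.0297. Its antisense neighbour Junos was counted 864 times over all pools, against 92602 counts of Jun. Junb, which restrains Jun, held 12.5, 10.9, 10.5, 11.9 and 13.1 CPM in knockout pools 1 to 5 and 9.67, 11.6, 12.6 and 12.3 CPM in wildtype pools 1 to 4. These groups interleave, with a log2 fold change of 0.03 (interval −0.18 to 0.24; edgeR adjusted p = 0.919), and its sign turned without knockout pool 5 or wildtype pool 1. Junb overlaps Prdx2, which lies on the opposite strand with 346436 counts against 8210 of Junb, and no source used here says whether counting used strand, so reads of the overlap cannot be told apart.

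Fos, the classical activity marker, held 3.19, 3.34, 2.35, 2.80 and 2.65 CPM in knockout pools 1 to 5 and 2.83, 3.23, 3.25 and 2.45 CPM in wildtype pools 1 to 4. The groups overlap over nearly their whole range. On the log2 scale the difference was −0.04 in counts (SE 0.15, interval −0.35 to 0.28; edgeR adjusted p = 0.939), while summed TPM gave 0.26 (SE 0.17; limma adjusted p = 0.513) and the authors' deposited table had it at 0.18 (q = 0.866). A row of TPM that counts do not separate was 1 of 4 Fos transcripts, listed at 0.657, 0, 0, 1.66 and 1.75 TPM in knockout pools 1 to 5 and at 0 to 0.227 TPM in wildtype; the main transcript had 2.41 ± 0.43 TPM in knockout and 2.46 ± 0.28 TPM in wildtype. Fosb, whose product includes the long-lived form deltaFosB, had 19 to 51 counts per knockout pool and 20 to 45 per wildtype pool. That is 0.485 ± 0.142 CPM in knockout and 0.397 ± 0.144 CPM in wildtype, a log2 fold change of 0.29 (SE 0.35, interval −0.47 to 1.05; edgeR adjusted p = 0.753), an interval that spans both signs.

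Arc, an activity-regulated protein of synapses, was lower on average in knockout. It held 1.20, 0.931, 1.01, 1.26 and 1.77 CPM in knockout pools 1 to 5, and 1.46, 1.89, 2.04 and 2.07 CPM in wildtype pools 1 to 4. Knockout pools 1 to 4 lay below every wildtype pool, and knockout pool 5 lay above wildtype pool 1. This was −0.59 on the log2 scale (SE 0.21, interval −1.04 to −0.14; edgeR adjusted p = 0.158, unadjusted p = 0.0135). Leaving out knockout pool 5 gave −0.76 and a call (edgeR adjusted p = 0.0466), and leaving out knockout pools 1 and 2 gave −0.47 and no call. The authors' deposited table gave −0.65 with q = 0.109. In the same libraries there were 8.64 to 19.1 Egr1 counts per Arc count in knockout pools and 4.35 to 8.86 in wildtype pools, a ratio computed after both values were seen, which overlaps through knockout pool 5.

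Npas4, a factor that neurons induce on depolarisation, held 2.31, 1.90, 1.17, 1.89 and 1.44 CPM in knockout pools 1 to 5 and 2.36, 2.22, 1.99 and 2.52 CPM in wildtype pools 1 to 4. Here 4 knockout pools lay below every wildtype pool and knockout pool 1 among them. The difference of −0.38 on the log2 scale did not pass (SE 0.19, interval −0.80 to 0.04; edgeR adjusted p = 0.355). Summed TPM of Npas4 was 1.42, 1.01, 0.543, 1.08 and 0.828 in knockout pools 1 to 5 and 1.39, 1.07, 1.13 and 1.41 in wildtype pools 1 to 4. These groups overlap too, with knockout pool 1 above every wildtype pool, and the difference was −0.27 (limma adjusted p = 0.613). Nr4a1 held 17.8, 13.6, 12.2, 13.6 and 12.9 CPM in knockout pools 1 to 5 and 14.0, 13.1, 14.6 and 14.8 CPM in wildtype pools 1 to 4. Knockout pool 1 stood above all other pools, and the remaining pools interleave. The log2 fold change was −0.01 (SE 0.10, interval −0.23 to 0.21; edgeR adjusted p = 0.977).

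**Figure D4:**
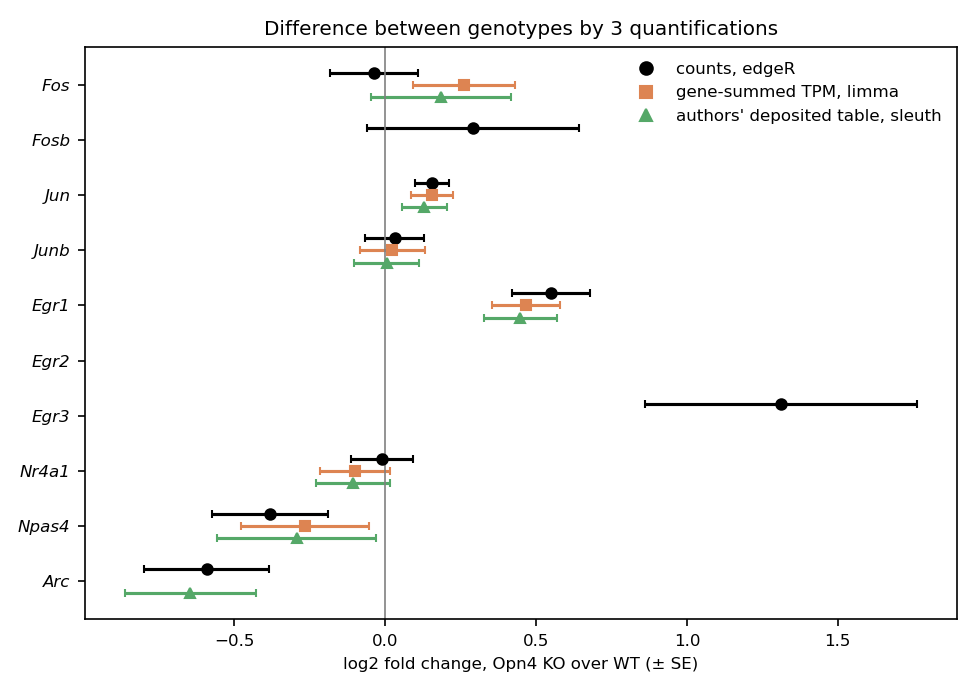
Log2 fold change of knockout over wildtype (± SE) by edgeR on counts, by limma on gene-summed TPM and in the authors' deposited table; genes without a point were not tested there. Egr1 lies at 0.55, 0.47 and 0.45, Arc at −0.59 and −0.65, and Fos at −0.04, 0.26 and 0.18.

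The pool with the highest level differed among the 10 genes. Knockout pool 1 was the highest of all 9 pools for 4 of them (Fosb, Egr1, Egr2 and Nr4a1), knockout pool 3 for Jun and Egr3, and wildtype pool 4 for Npas4 and Arc. Knockout pool 3 was also the lowest for Fos, Nr4a1 and Npas4. For the 7 genes with a mean of at least 1 CPM, the gene with the most similar log2 CPM over the 9 pools, among 15738 candidates, was Sec62 for Egr1 (Pearson r 0.954), Zc3h11a for Fos (0.976), Hsp90aa1 for Jun (0.954), Eng for Junb (0.946), Gm43338 for Nr4a1 (0.941), Acot4 for Npas4 (0.971) and Serpine2 for Arc (0.957). Each is the best of many candidates over few pools that also differ in genotype, and is a description only.

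Of 79 other genes of the pathway, in 5 lists chosen by role, 77 were tested and 2 were called, both higher in knockout, a share of 2.60% against 3.59% of all genes. Their median log2 fold change was 0.04 and 6 of them (7.79%) had groups without overlap, against 8.29% of all genes tested. The median size of a difference, whatever its sign, was 0.09 on the log2 scale for them and 0.11 over all genes. At an unadjusted p under 0.05 stood 20 of the 77 (26.0%), against 16.5% of all genes tested. In a fit on genes with a mean of at least 1 CPM, the share over all genes was 20.2%. None of these comparisons with all genes was matched for level.

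**Figure D5:**
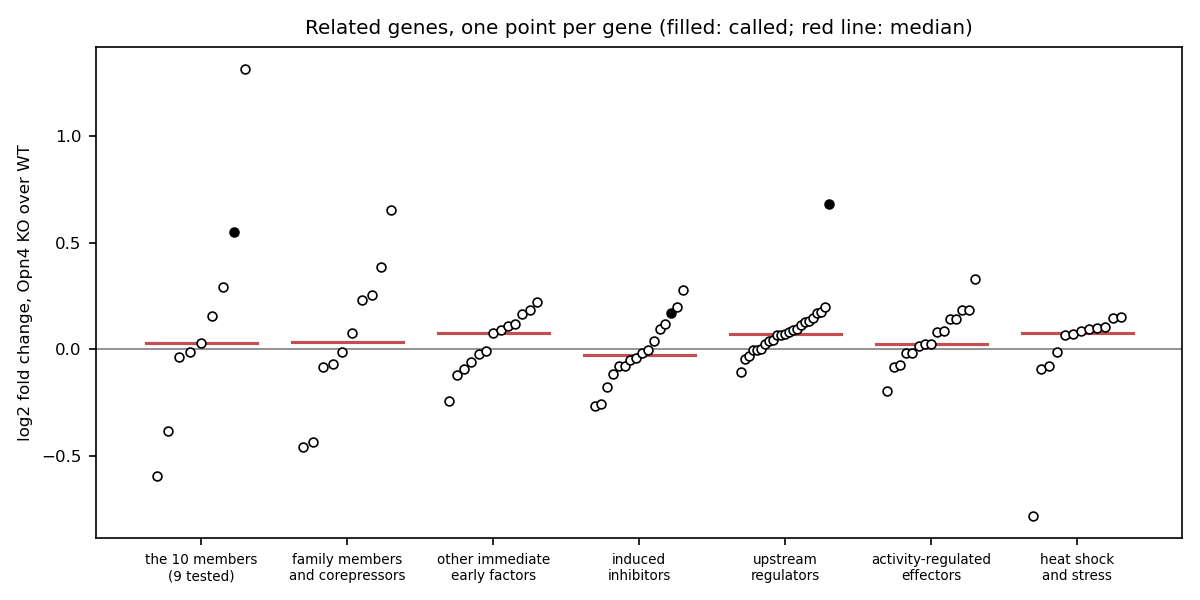
Log2 fold change of knockout over wildtype for the tested genes of the 10, for 5 lists of related genes and for stress genes, one point per gene, filled where called, with the list median in red. Filled points are Egr1, Trib1 and Camk4, and list medians lie between −0.03 and 0.08.

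Among the regulators that carry activity to these promoters, Camk4, a calcium and calmodulin dependent kinase that phosphorylates CREB, had 16.1, 16.5, 16.4, 14.6 and 13.5 CPM in knockout pools 1 to 5 and 10.4, 10.2, 6.98 and 10.8 CPM in wildtype pools 1 to 4. Every knockout pool lay above every wildtype pool. It was higher by 0.68 on the log2 scale (SE 0.12; edgeR adjusted p = 0.00603) in 5 of 5 knockout pools. Leaving out each pool in turn, or knockout pools 1 and 2 (edgeR adjusted p = 0.0421), kept it called. Of the 23 regulators, 1 was higher, none lower and 22 not called, with a median of 0.07 and 18 log2 fold changes above 0. Their summed level was 1714 to 1771 CPM in knockout pools and 1547 to 1678 CPM in wildtype pools, without overlap. Camk2a, the alpha subunit of the related kinase, measured 0.20 (edgeR adjusted p = 0.247) and Mef2c, a factor that responds to calcium, 0.17 (adjusted p = 0.457), the largest differences among those not called with at least 1 CPM. Of 16 induced inhibitors, Trib1, a pseudokinase that steers protein degradation, was higher, at 224 ± 6 CPM in knockout and 200 ± 8 CPM in wildtype (log2 fold change 0.17, SE 0.04, adjusted p = 0.0392), a call lost without any of 6 single pools and without knockout pools 1 and 2 (adjusted p = 0.0877). None was lower, and the median was −0.03. Gadd45b, a stress-induced gene, measured 0.28 (edgeR adjusted p = 0.667) and the kinase Plk3 −0.27 (adjusted p = 0.175).

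In the other 3 lists none was called in either direction. Of 10 tested family members and corepressors, the largest values among genes of at least 1 CPM were those of Maff, a small Maf factor, at −0.46 (edgeR adjusted p = 0.118) and Nab2, the corepressor that EGR proteins induce, at −0.44 (adjusted p = 0.115). Nab2 averaged 7.12 ± 1.19 CPM in knockout and 9.62 ± 1.56 CPM in wildtype, so that it lay on the other side of 0 from Egr1 while its groups overlapped. Of 13 other immediate early factors, Klf2 measured −0.24 and Klf4 0.22 (edgeR adjusted p 0.683 and 0.729), both zinc finger factors. Of 15 activity-regulated effectors of neurons, Pcsk1, a prohormone convertase, measured 0.33 (edgeR adjusted p = 0.273) and the cell cycle inhibitor Cdkn1a −0.20 (adjusted p = 0.474). Scg2, secretogranin II, named after its values were seen, had 148 ± 5 CPM in knockout and 130 ± 8 CPM in wildtype without overlap and came next to the threshold (log2 fold change 0.18, edgeR adjusted p = 0.0517). The medians of these lists were 0.03, 0.08 and 0.03.

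Lists of stress genes and of cell type markers were read beside these values. Of all genes tested, 1.34% were called as higher and 2.25% as lower. Of 12 heat shock and stress genes, none was called (median 0.08). A list this short can easily hold no call at these shares, so equal handling was not shown. Summed levels of the stress genes were 2207 to 2517 CPM in knockout pools and 2155 to 2320 CPM in wildtype pools. Most of these sums was Hspa8, at 1491 ± 140 CPM in knockout and 1390 ± 55 CPM in wildtype, so they say little about the other stress genes. Hmox1, an enzyme of heme breakdown, measured −0.78 (edgeR adjusted p = 0.324) and the chaperone Hsph1 0.15 (adjusted p = 0.162). Of 11 progenitor and cell cycle markers 6 were lower and 1 higher in knockout, with sums of 1145 to 1279 CPM in knockout pools and 1583 to 1679 CPM in wildtype pools. Of 9 rod markers 7 were higher, with 2974 to 4218 CPM in knockout pools and 2528 to 2819 CPM in wildtype pools. Of 8 bipolar markers 4 were higher. Their sums overlapped, at 820 to 903 CPM in knockout pools and 830 to 869 CPM in wildtype pools, and Otx2, which was not called, held 683 ± 37 CPM of them in knockout and 676 ± 28 CPM in wildtype. With each marker weighted equally, as the mean log2 CPM relative to its own mean, the list did not overlap, at 0.16 to 1.04 in knockout pools and −0.74 to −0.55 in wildtype pools. Of 10 ganglion cell markers 2 were higher, of 8 amacrine markers 2 were lower and of 8 Müller glia markers 1 was higher, all with overlapping sums. None of 10 endothelial and pericyte, 8 microglia, 5 astrocyte and 8 pigment epithelium markers was called. Of 6 tested red blood cell markers 5 were lower, with 73.8 to 99.6 CPM in knockout pools and 110 to 336 CPM in wildtype pools, and Hbb-y was at 0 in all pools. Of 7 tested lens markers 2 were higher, with 7.78 to 20.1 CPM in knockout pools and 6.88 to 7.50 CPM in wildtype pools. Whether the makeup of the pools had a part in the values of Egr1, Camk4 or Trib1 was not tested.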

How the data were processed

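Poly-A RNA of 9 pools was sequenced with paired reads of 150 bases. The authors deposited whole-number counts per gene symbol, unnormalised, by a program not given in the sources used here. They also deposited a signal, TPM per transcript from kallisto 0.46.1 on GRCm38 after Trimmomatic 0.39, per the submitters' processing notes; its column sums of 953963 to 1083977 show a rescaling between pools that these sources do not describe. Of 118489 transcript rows, 1673 had no symbol (0.612 to 0.833% of TPM) and 188 had a symbol of digits; both were left out. A further deposited table, from sleuth 0.30.8 per the same notes, holds the authors' p-value and q-value of each gene, and effects on the natural log scale, positive where wildtype is higher as read from Opn4; these were converted to log2 of knockout over wildtype.

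Counts were tested with edgeR 4.0.16 in R 4.3.3 (filterByExpr, TMM, quasi-likelihood F test, all 9 pools). CPM uses TMM library sizes, and log2 CPM a prior count of 2. Intervals are 95% from the fit's degrees of freedom. On log2(TPM + 0.5), limma 3.58.1 (trend) tested genes whose summed TPM reached 1 in 4 or more pools. Positions and overlaps are from GENCODE M21 (GRCm38); BLAST 2.17.0 found no transcript of another gene that matched 1 of the 10 at 95% identity over 50% of either transcript. Named related genes are those called, plus the 2 largest of each list not called with a mean of at least 1 CPM. The 10 genes, the lists and the tests were chosen with earlier results of these data known. Alternatives were other scalings, filters and pseudocounts, DESeq2 1.42.0, a robust fit, a replicate block and leaving out pools. P-values measure the spread between pools of separate animals. Litter was not in the model, and pools that share a litter would not be fully independent.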

Additional observations from a re-analysis of the deposited data

Results flagged for a closer look

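In 4 of 40 sets of pools of 1 genotype (10 genes, CPM and TPM), 1 pool stood far from the others by Dixon's criterion, which chance meets in about 1 in 20 sets. Egr1 was 9.01 CPM in wildtype pool 4, with the next wildtype pool at 12.7 CPM; without that pool its log2 fold change was 0.43 (edgeR adjusted p = 0.0741). Nr4a1 was 17.8 CPM in knockout pool 1, with the next knockout pool at 13.6 CPM. In summed TPM, Nr4a1 was 13.9 in wildtype pool 2, with the next wildtype pool at 17.7, and Fos was 2.23 in knockout pool 3, with the next knockout pool at 3.44.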

How the results depend on the processing

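The number of genes called was 760, or 1502 with DESeq2 and 486 without knockout pools 1 and 2. DESeq2 was run without edgeR's filter and applied its own filter on low counts before adjustment. It thus differs from edgeR in the genes adjusted over as well as in the test. It gave a p-value to 34459 genes, against 21150 tested by edgeR, but no adjusted p to Fosb and Egr3, which could not be called there. Of the 760 genes 284 were higher in knockout (676 with DESeq2, 152 without a filter on low counts, 134 without knockout pools 1 and 2, and 153 to 347 without any single pool) and 476 lower (826 with DESeq2). Of the 10 genes 1 was called, but 0 without a filter on low counts (edgeR; 4 with an unadjusted p under 0.05, as had 12.2% of all genes in that fit; Egr1 adjusted p = 0.0859) and 0 to 2 without any single pool. In summed TPM limma called 0 of the 6 tested, with 2 at an unadjusted p under 0.05 (15.5% of all genes there), and 0 to 1 without any single pool. There, 330 genes were called in all, 194 without a filter, 215 with the replicate block and 160 to 364 without any single pool. Of the lists of related genes, stress genes included, 2 were called, 5 with DESeq2, 1 without a filter or without knockout pools 1 and 2, and 1 to 2 without any single pool.

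Egr1 kept its direction in all 17 alternatives on counts and its call in 9, with adjusted p from 0.000621 (DESeq2) to 0.150. Egr3, Fosb, Arc, Npas4 and Jun also kept their directions. Without any single pool Fos ran from −0.12 to 0.023, Junb from −0.048 to 0.077 and Nr4a1 from −0.11 to 0.032, and Junb in TPM from −0.056 to 0.092. Pools with the same number in both genotypes did not deviate together (r −0.031 to 0.0061 over genes, and 0 of 8 pools correlated best with its own number). No pairing by number was thus seen, though correlations over all genes can miss a weak one. With the replicate block 888 genes were called, and Egr1 kept its call (log2 fold change 0.60). Trib1 lost its call (edgeR adjusted p = 0.0675), and Junb (−0.0056, and −0.023 in TPM) and Nr4a1 (0.0076) turned sign. Only knockout had a pool 5, so the block also took that pool out of the comparison of genotypes. With that pool left out and no block, Junb (−0.012, and −0.023 in TPM) and Nr4a1 (0.017) turned sign too. The causes were not tested. Depth limits Egr2, Egr3 and Fosb, with at most 51 counts in a pool.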
